A study of Mus musculus with 46 samples.

Results

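C3(1)/Tag mammary tumors were compared with normal mammary gland in 10 of the 46 mRNA arrays of the series, the 5 arrays titled C3TAg and the 5 titled FVB pregnant. Each array held total RNA from 1 tissue sample of a female mouse of the FVB strain, so that both groups had the same background. The series as a whole holds 41 primary tumors of 8 genetically engineered models and 5 normal glands, and it was made to set mRNA beside miRNA profiles of the same kinds of tumor. The 7 other models were MMTV-Hras, MMTV-H2N, MMTV-C-Myc, MMTV-PymT, MMTV-Wnt, p53-/- and Brca1-/-p53+/-, and they entered only where the C3(1)/Tag tumors were set against other tumors. Values were log2 GC-RMA intensities, and 9329 genes were tested, each through 1 probe set.

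The C3(1)/Tag mice carried the SV40 T/t antigens behind C3(1) regulatory sequence of the rat prostate steroid binding protein gene. This promoter is active in ductal cells of the gland, with weaker activity elsewhere in the body. The tumors were primary tumors from individual mice. The normal glands came from FVB females in late pregnancy without a transgene. The study chose pregnant glands because they are rich in epithelium, and a gland of that stage is also preparing to make milk. A tumor array and a normal array therefore differed in transformation, in pregnancy and in the cell types each piece of tissue held, and these cannot be told apart. In bulk tissue, fewer cells of a type and less RNA per cell cannot be told apart either. Nothing in the labels says more of how replicates were taken than that each is a separate sample, so the p-values measure the spread between these samples.

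SV40 large T antigen binds the retinoblastoma proteins (Rb1, Rbl1, Rbl2), which otherwise hold E2F transcription factors inactive, and it also binds p53. Small t antigen acts on protein phosphatase 2A. E2F factors drive the genes of DNA synthesis at entry into S phase, and the MuvB complex with Mybl2 and Foxm1 drives the genes of mitosis later in the cycle. In the pregnant gland, prolactin acts through Stat5a and Elf5 to turn on casein and whey protein genes in alveolar luminal cells.

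Arrays resembled those of their own group more than those of the other. Pearson correlations between arrays, over all genes tested, ran from 0.922 to 0.971 among the tumors and from 0.908 to 0.959 among the normal glands, against 0.705 to 0.795 between the groups. The median log2 value of an array was 7.30 to 7.43 in the tumors and 6.75 to 7.14 in the normal glands, so the groups did not overlap in overall level. The median difference over all genes was 0.22 in favor of the tumors, and each difference below should be read against it. This shift was 0.02 after quantile normalization and -0.20 after centring each array on its median. Of 7 control genes 5 were called higher in the tumors and Sdha lower, and after centring 2 were called in each direction.

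The labels were checked against markers of the cell types that a piece of gland or tumor can hold. Luminal keratin genes Krt8 and Krt18 were high in all 10 arrays, at 11.48 or above. The mean log2 level over 16 adipocyte genes was 4.99 to 7.36 in the tumors and 11.35 to 12.63 in the normal glands, so fat cell RNA was high in every normal sample and lower in every tumor. Ucp1, the uncoupling protein of brown fat, which was looked up after its values were seen, read 13.01, 13.96 and 14.05 in normal glands 1 to 3 but 2.13 and 2.23 in normal glands 4 and 5. In the tumors it read 8.16, 4.00, 2.13, 2.09 and 2.13. Brown fat RNA was thus high in 3 of 5 normal glands, and genes of lipid use and respiration are given below with and without those glands. The mean over 18 skeletal muscle genes was 11.79, 5.37, 11.57, 10.50 and 12.73 in the normal glands and 2.48, 5.61, 8.45, 9.05 and 7.76 in the tumors, so muscle RNA was uneven in both groups.

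**Figure D1:**
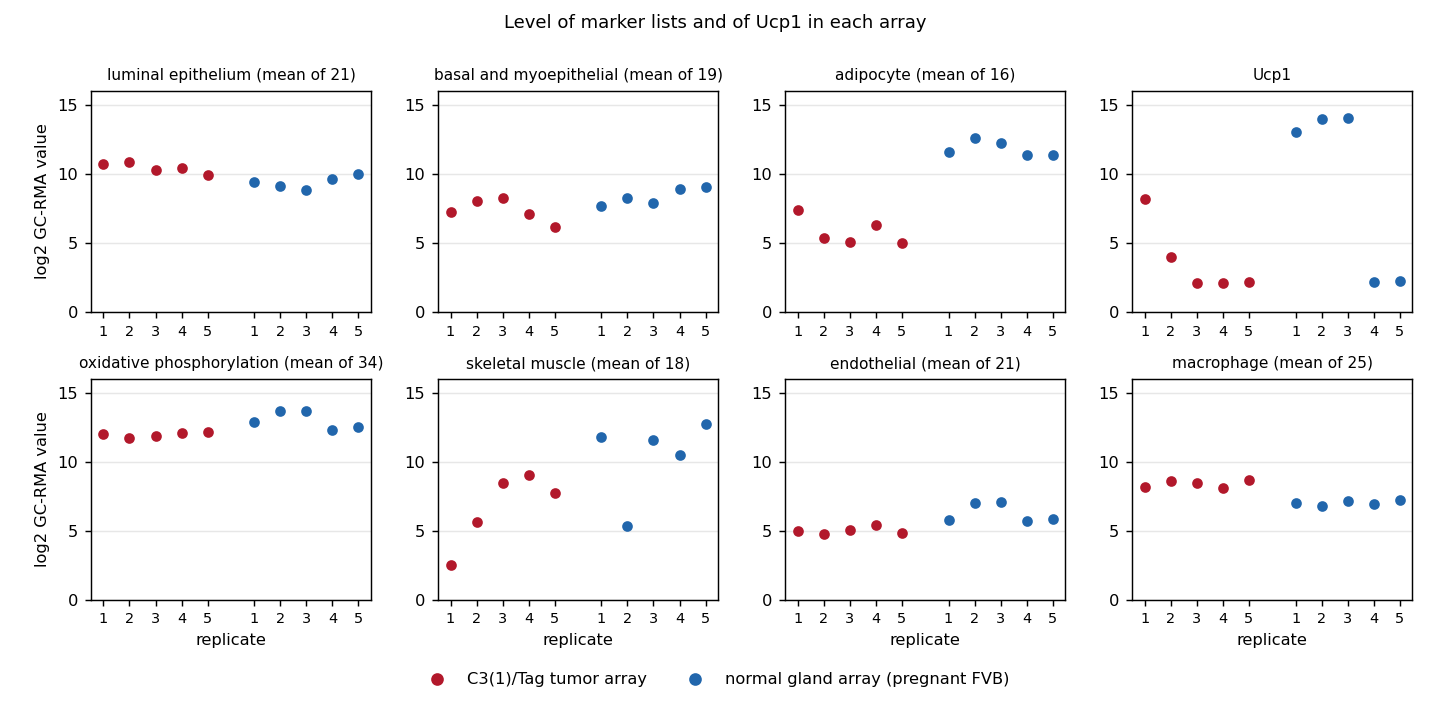
Log2 GC-RMA level (vertical axis) of 7 marker lists, as the mean over their tested members, and of Ucp1, in each of the 5 C3(1)/Tag tumors (red) and 5 normal glands (blue), by replicate number. Adipocyte genes were lower in every tumor than in every normal gland, Ucp1 was at 13.01 or above in normal glands 1 to 3 only, and skeletal muscle genes varied within both groups.

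At an adjusted p under 0.05 (limma, Benjamini-Hochberg over all genes) 3191 genes, 34.2% of those tested, were higher in C3(1)/Tag tumors, and 2048 genes, 22.0%, were lower. With a difference of at least 2-fold required as well, 2530 genes (27.1%) were higher and 1590 (17.0%) were lower. The share of higher genes among the 2-fold calls was 61.4%, and it was 51.6% after quantile normalization and 43.6% after centring, so the balance between the directions depends on how the arrays are scaled. Differences were large. A change of 16-fold or more was seen for 278 higher and 266 lower genes, and the 2 groups of arrays did not overlap for 2531 higher and 1767 lower genes. Since 5239 of the 9329 genes were called, the count of called members in a gene list is read below against 34.2% and 22.0%. Counts of members without overlap are read against those 2531 higher and 1767 lower genes of 9329. With normal glands 4 and 5 only, 2043 genes were called higher and 1345 lower by 2-fold or more. That comparison held fewer arrays, so a call lost in it does not by itself show an effect of the glands left out.

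The 15 genes with the largest rise held cell cycle genes beside genes of surface epithelium and of cartilage matrix. Ly6d, which encodes a lipid-anchored surface protein, was highest of all, with 11.26, 11.61, 11.73, 11.35 and 10.87 in the tumors and 2.11, 2.14, 2.11, 2.47 and 2.18 in the normal glands. The difference was 9.16 on the log2 scale (SE 0.19, adjusted p = 8.59e-10). Lad1, the anchoring filament protein ladinin, rose by 8.79, and Lgals7, a galectin of stratified epithelia, rose by 7.03. Snorc, a proteoglycan of cartilage, rose by 8.04, and its values of 10.64, 12.66, 10.36, 10.44 and 10.43 in the tumors stood against 2.85 to 2.89 in the normal glands. The cartilage collagen genes Col9a3 and Col11a1 rose by 7.83 and 7.59. Emb, which encodes a partner protein of monocarboxylate transporters, rose by 7.75, and Wfdc2, of the whey acidic protein family, rose by 7.66. Prkg2, a cGMP-dependent kinase, rose by 7.51, but only 1 of its 2 probe sets was called. Ncmap rose by 7.02 and Emp2, a tetraspan membrane protein, by 6.92. The other 4 were Anln, Ncapd2, Cdc45 and Ccnb2, which are described with the cell cycle.

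The 15 genes with the largest fall were almost all genes of milk. They were Wap, Lalba, Glycam1, Fabp3, Csn1s2a, Csn1s1, Lao1, Cel, Btn1a1, Csn2, Sftpd, Csn1s2b, Saa1, Cidea and Olah, with falls between 12.16 and 9.04 on the log2 scale. Lao1, an amino acid oxidase secreted into mouse milk, read 13.36 to 15.14 in the normal glands and 2.45 to 3.94 in the tumors. Sftpd, a surfactant collectin that is also made in the gland, read 12.31 to 14.85 and 3.75 to 4.46. Values near 2 are at the lower end of the GC-RMA scale, where it carries no further information on how low a gene is, so the size of these differences is set in part by that floor. The same holds for rises from a normal value near 2.

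Most tested genes of the Rb and E2F network rose, and the gene for Rb itself did not pass the test. Rb1 read 10.07, 10.87, 11.07, 9.40 and 9.99 in the tumors and 10.68, 10.55, 10.79, 10.61 and 11.01 in the normal glands, a difference of -0.44 (SE 0.30, adjusted p = 0.233), which became -0.87 and a call (adjusted p = 0.0309) after centring. Rbl1, which encodes the related p107, read 11.66, 11.23, 11.10, 12.10 and 12.01 in the tumors and 8.08, 7.27, 6.82, 7.73 and 8.61 in the normal glands, and the groups did not overlap. E2f1 read 7.97, 7.27, 7.31, 7.48 and 7.87 in the tumors against 4.72, 3.32, 4.73, 4.09 and 4.67. The rise was 3.92 (SE 0.35, adjusted p = 8.82e-06) for Rbl1 and 3.27 (SE 0.30, adjusted p = 1.07e-05) for E2f1. Of 11 tested genes of this network 7 rose and none fell, with a median difference of 2.27. The others that rose were Foxm1 (4.52), E2f8 (4.30), Mybl2 (4.22), the E2F partner Tfdp1 (2.27) and the MuvB subunit Lin9 (1.42). E2f5, Rbl2 and E2f6 had differences of 0.55, 0.00 and -0.05 and were not called.

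Most cyclins and their kinases rose, but not the D cyclins. Ccnb2, a mitotic cyclin, read 11.73, 11.61, 12.24, 12.24 and 11.76 in the tumors and 3.62, 5.90, 2.83, 6.23 and 6.24 in the normal glands, a rise of 6.95 (SE 0.66, adjusted p = 1.35e-05). Ccna2 rose by 5.98, Cdk1 by 4.99, the phosphatase gene Cdc25b by 4.99, Ccne2 by 3.21, Cdk2 by 3.19 and Cdk4 by 1.80. None of the D cyclins, which act upstream of Rb, was called higher. Ccnd1 read 9.54, 7.78, 10.10, 9.92 and 9.55 in the tumors and 9.75, 10.15, 9.35, 9.33 and 10.33 in the normal glands (difference -0.41, adjusted p = 0.433), Ccnd3 differed by 0.33 without being called, and Ccnd2 fell by 2.21. Ccne1 differed by 0.68 (adjusted p = 0.174), with overlapping groups. Of 19 genes 13 rose and Ccnd2 alone fell, a call that was lost in the fit of all 9 groups and with normal glands 4 and 5 only.

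Of the 4 INK4 inhibitors of the cyclin D kinases 3 rose, and Cdkn2c was not called at 0.60 but was with normal glands 4 and 5 only (1.70, adjusted p = 0.00244). Cdkn2a, whose transcripts encode p16 and p19Arf, read 6.89, 8.58, 9.57, 7.78 and 6.37 in the tumors and 2.20 to 2.54 in the normal glands, a rise of 5.45 (SE 0.52, adjusted p = 1.46e-05). Cdkn2b, its neighbor in the genome, rose by 5.41 and Cdkn2d by 3.06. The probe set for Cdkn2a does not show here which of the transcripts was measured. Cdkn1b rose by 1.58, the imprinted Cdkn1c fell by 2.44, and Cdkn1a read 9.47 to 10.89 in the tumors and 7.55 to 11.16 in the normal glands, which was not called (difference 1.18, adjusted p = 0.127) but was without normal gland 2 (1.69, adjusted p = 0.0147).

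Nearly every gene of DNA replication rose. Of 52 genes for origin licensing, helicase, polymerases, clamp loading and nucleotide supply 48 rose and none fell, with a median difference of 4.35. The 4 that were not called were Orc3, Orc4, Orc5 and Pold3, with differences between -0.26 and 0.26. Mcm5, a subunit of the replicative helicase, read 12.01, 11.28, 11.32, 11.73 and 11.52 in the tumors and 5.14, 5.24, 5.26, 2.67 and 5.48 in the normal glands. It rose by 6.81 (SE 0.49, adjusted p = 2.50e-06). Cdc45, which activates that helicase, read 9.41 to 10.04 in the tumors and 2.47 to 2.84 in the normal glands, a rise of 7.07. Licensing factors Cdc6 (5.97) and Cdt1 (4.21), the primase and polymerase genes Prim1 (4.75), Pola1 (6.03) and Pole (5.99), the sliding clamp Pcna (3.17) and the nucleotide enzymes Tk1 (6.10) and Rrm2 (3.53) rose as well. For 47 of the 52 genes no tumor overlapped with a normal gland, against 2531 higher genes without overlap among all 9329.

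All 49 tested genes of mitosis and the spindle rose, with a median of 4.71 and no overlap between the groups for any of them. Top2a, the topoisomerase that untangles sister chromatids, read 12.88, 12.38, 12.79, 13.03 and 12.59 in the tumors and 6.59, 6.24, 4.91, 6.28 and 6.52 in the normal glands, a rise of 6.62 (SE 0.31, adjusted p = 1.46e-07). Mki67, the proliferation marker, read 13.09, 12.18, 12.61, 13.07 and 13.07 against 9.51, 8.35, 7.40, 10.78 and 9.22, a rise of 3.75 (SE 0.54, adjusted p = 0.00021). The mean level over the 49 genes was 5.25 to 6.23 in the normal glands and 10.17 to 10.92 in the tumors. Anln, which encodes the contractile ring protein anillin, rose by 7.78, the condensin gene Ncapd2 by 7.26, the midbody kinesins Kif23 and Kif20a by 6.86 and 6.82, and the checkpoint kinase gene Bub1 by 6.58.

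**Figure D2:**
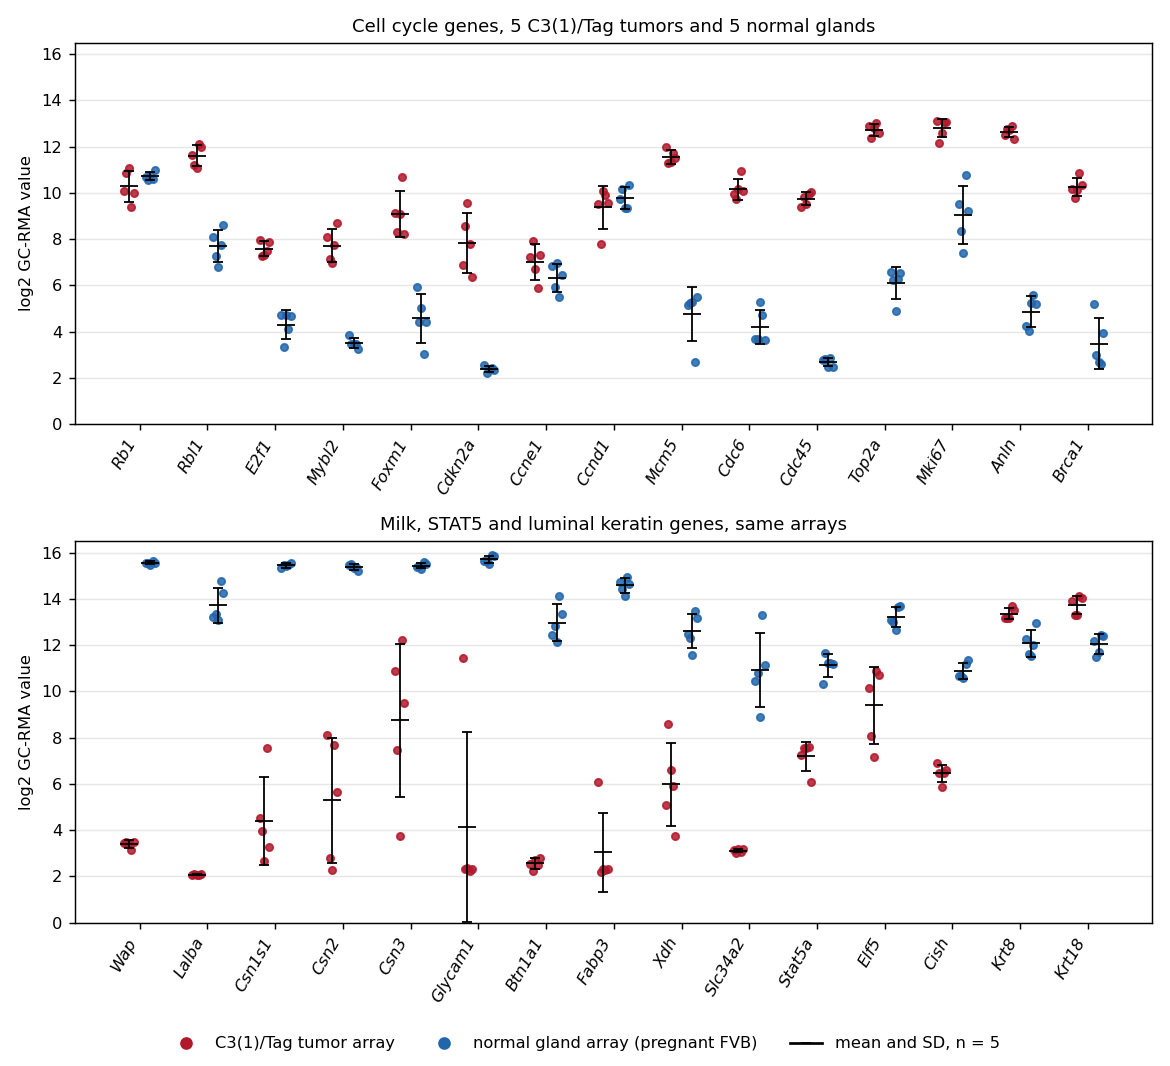
Log2 GC-RMA values (vertical axis) of 15 cell cycle genes (top) and 15 milk, STAT5 and luminal keratin genes (bottom) in each C3(1)/Tag tumor (red) and normal gland (blue), with bars for the mean and SD of 5 arrays. Replication and mitosis genes such as Mcm5, Cdc45 and Top2a were higher in every tumor, Rb1, Ccne1 and Ccnd1 overlapped between the groups, and Wap and Lalba were at the lower end of the scale in all tumors.

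Promoters of these genes, and of milk genes for contrast, were searched for the letters of motifs known from their regulation. The sequences were taken from RefSeq (build GRCm38.p6) as 250 bases before to 50 bases after each annotated start, for 32851 promoters of 27025 genes. An E2F site was searched as TTTGGCGC or TTTCCCGC, the cell cycle homology region bound by MuvB as TTTGAA, the CCAAT box as CCAAT and the GAS site bound by STAT factors as TTCNNNGAA, each on both strands. Of the 57 listed replication genes 47 matched the promoter table, as did 45 of 54 mitosis genes, 11 of 15 milk protein genes and 17 of 26 milk fat genes. The E2F letters were in 23.2% of the 56 replication promoters, 4.0% of the 50 mitosis promoters and none of the milk promoters, against 1.6% of all promoters. The homology region was in 70.0% of mitosis promoters, 16.1% of replication promoters, 33.3% of milk protein promoters, 20.8% of milk fat promoters and 17.9% of all. A CCAAT box was in 72.0% of mitosis, 50.0% of replication, 41.7% of milk protein, 50.0% of milk fat and 37.4% of all promoters. Both together were in 58.0% of mitosis promoters and 7.0% of all promoters. The GAS letters were in 4 of 12 milk protein promoters (33.3%), in 8.3% of the 24 milk fat promoters and in 8.3% of all. These letters are short, and a match is a description of the sequence only.

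**Figure D3:**
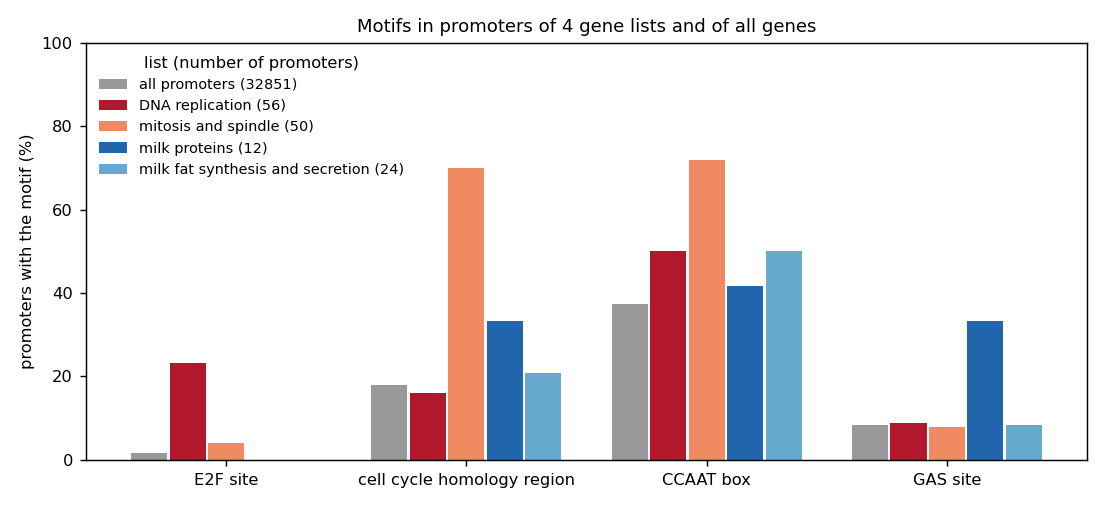
Share of promoters (vertical axis, percent) that hold each of 4 motifs on either strand, for all RefSeq promoters (gray) and for the promoters of 4 gene lists (colors), with the number of promoters in the key. The E2F site was in 23.2% of replication promoters and the cell cycle homology region in 70.0% of mitosis promoters, and the GAS site and the homology region were each in 33.3% of milk protein promoters.

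The 150 bases just before the start are shown for 3 replication genes, to let the E2F letters be seen where they lie, with the motif letters named above in capitals. In Mcm5 an E2F match began 149 bases before the start, in Mcm6 matches began at 110 and 47 bases, and in Cdc6 one began at 138 bases. The other capitals in Mcm5 and Mcm6 are CCAAT boxes or their complement.
Mcm5, chr8:75109359-75109508, plus strand: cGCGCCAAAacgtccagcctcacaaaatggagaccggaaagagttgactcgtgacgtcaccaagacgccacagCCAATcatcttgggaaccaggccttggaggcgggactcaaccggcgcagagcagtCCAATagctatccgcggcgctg
Mcm6, chr1:128359706-128359855, minus strand: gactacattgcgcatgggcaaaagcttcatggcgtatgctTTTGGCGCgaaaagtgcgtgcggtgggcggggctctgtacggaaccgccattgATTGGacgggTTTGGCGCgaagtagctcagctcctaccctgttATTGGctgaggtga
Cdc6, chr11:98908001-98908150, plus strand: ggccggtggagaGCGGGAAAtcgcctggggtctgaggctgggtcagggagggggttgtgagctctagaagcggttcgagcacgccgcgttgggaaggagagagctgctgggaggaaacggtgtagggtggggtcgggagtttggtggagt

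For the mitosis genes Top2a, Kif11 and Cdc20, the same 150 bases show the homology region close to the start, at 23, 19 and 18 bases before it, with 1 or more CCAAT boxes upstream of it and, in Cdc20, another after it.
Top2a, chr11:99024190-99024339, minus strand: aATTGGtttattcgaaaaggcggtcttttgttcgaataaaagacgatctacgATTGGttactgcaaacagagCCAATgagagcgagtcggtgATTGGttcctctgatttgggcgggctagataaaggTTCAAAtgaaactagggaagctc
Kif11, chr19:37376232-37376381, plus strand: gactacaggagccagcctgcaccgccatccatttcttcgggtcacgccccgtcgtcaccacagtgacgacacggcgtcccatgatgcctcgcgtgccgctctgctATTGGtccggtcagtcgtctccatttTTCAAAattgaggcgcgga
Cdc20, chr4:118437344-118437493, minus strand: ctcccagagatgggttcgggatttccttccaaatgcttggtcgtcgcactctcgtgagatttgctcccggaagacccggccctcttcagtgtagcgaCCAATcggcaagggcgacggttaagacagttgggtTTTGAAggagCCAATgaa

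For the milk genes Csn2, Csn1s1 and Glycam1, the capitals mark the GAS letters, which began 93, 100 and 145 bases before the start, and CCAAT boxes in the latter 2 genes.
Csn2, chr5:87699426-87699575, minus strand: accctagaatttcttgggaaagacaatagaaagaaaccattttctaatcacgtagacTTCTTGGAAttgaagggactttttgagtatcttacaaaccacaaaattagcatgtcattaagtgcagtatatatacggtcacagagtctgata
Csn1s1, chr5:87666058-87666207, plus strand: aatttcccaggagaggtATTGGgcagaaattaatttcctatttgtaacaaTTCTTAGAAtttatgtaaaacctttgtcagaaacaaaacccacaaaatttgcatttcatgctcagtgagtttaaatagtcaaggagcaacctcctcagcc
Glycam1, chr15:103565082-103565231, minus strand: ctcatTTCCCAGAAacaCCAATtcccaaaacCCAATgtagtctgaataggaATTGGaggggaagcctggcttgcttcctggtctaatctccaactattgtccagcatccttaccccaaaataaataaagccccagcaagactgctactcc

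Genes of DNA repair and checkpoints rose with replication, 27 of 31 tested with none lower and a median of 2.53. Brca1, the homologous recombination gene that is itself lost in another model of the series, read 10.15, 9.78, 10.13, 10.88 and 10.35 in the C3(1)/Tag tumors and 5.20, 2.99, 2.67, 2.62 and 3.94 in the normal glands. Its rise was 6.78 (SE 0.48, adjusted p = 2.00e-06). Rad54l rose by 6.28, the checkpoint kinase gene Chek1 by 5.17 and the mismatch repair gene Msh6 by 4.53. Parp1 (0.61), Prkdc (0.51), Chek2 (0.91) and Xrcc5 (-0.52) were not called. Of the end-joining genes Prkdc, Xrcc5 and Xrcc6, only Xrcc6 rose (1.43).

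Most Polycomb and DNA methylation genes rose as well. Of 19 tested 14 rose and 2 fell, and after centring 11 rose and 4 fell. After quantile normalization 12 rose and 4 fell. Uhrf1, which guides maintenance methylation at the replication fork, rose by 6.52, Hells by 4.42, Dnmt1 by 3.11 and Ezh2, the Polycomb methyltransferase, by 2.53 (11.05 to 11.93 in the tumors and 8.67 to 9.23 in the normal glands). Jarid2 fell by 1.66, and the de novo enzyme gene Dnmt3b fell by 1.10, a call that was lost without any of several single arrays of both groups.

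Targets of p53 did not move one way. Of 25 tested targets 10 (40.0%) rose and 8 (32.0%) fell, against 34.2% and 22.0% of all genes, with a median of 0.47. Ccng1, a sensitive target, read 9.32, 9.43, 10.75, 10.03 and 9.77 in the tumors and 11.87 to 12.35 in the normal glands, a fall of 2.32 (SE 0.27, adjusted p = 4.78e-05), and its groups did not overlap. Steap3 fell by 1.91, Aen by 1.73, the death receptor gene Fas by 1.59 and the ribonucleotide reductase gene Rrm2b by 1.53. In the other direction Sfn (stratifin, also made by squamous epithelium) rose by 4.15, Gadd45a by 3.21, Pmaip1 by 3.16 and Mdm2 by 0.94. After centring, the counts were 8 higher and 9 lower. Among 18 apoptosis genes 7 rose (38.9%, against 34.2% of all genes), among them Casp2 (4.09) and the BH3-only gene Bcl2l11 (2.00). The 3 that fell were Birc3 (-1.85), Birc2 (-1.11) and Bak1 (-0.96), but after centring 5 rose and 6 fell.

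Myc itself was not called, while a part of the genes of ribosome production rose. Myc read 9.12, 8.40, 9.33, 9.07 and 9.52 in the tumors and 8.86, 8.92, 8.67, 9.07 and 9.92 in the normal glands, a difference of 0.00 (SE 0.28). Mycn rose by 2.81, but with values of 5.04, 7.75, 6.20, 5.17 and 2.45 it was at the normal level in tumor 5. Of 27 genes of the Myc network and ribosome biogenesis 14 rose and 2 fell, with a median of 0.86. Tcof1 (3.21), the RNA polymerase I subunit gene Polr1a (2.34) and the snoRNP genes Nop58 (2.24) and Nop56 (1.80) rose most beside Mycn. After centring 9 rose and 5 fell, and with normal glands 4 and 5 only 8 rose.

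Milk protein genes fell. All 13 tested genes were called lower (11 in the fit of all 9 groups and with normal glands 4 and 5 only, and 12 after quantile normalization or without some single arrays), with a median difference of -10.08, and the 2 groups did not overlap for 12 of them. Wap, the whey acidic protein, read 15.57, 15.57, 15.48, 15.65 and 15.56 in the normal glands and 3.46, 3.48, 3.46, 3.13 and 3.51 in the tumors. It fell by 12.16 (SE 0.14, adjusted p = 3.67e-12). Lalba, the regulatory subunit of lactose synthase, read 13.07 to 14.80 in the normal glands and 2.07 to 2.10 in the tumors. Csn2, the beta-casein gene, kept some signal in 3 tumors, with 8.12, 2.78, 2.27, 7.67 and 5.66 against 15.21 to 15.50. Csn3, the kappa-casein gene that stabilizes the micelle, kept the most, with 10.87, 7.48, 3.73, 12.21 and 9.49, and its fall of 6.69 (SE 1.31, adjusted p = 0.00157) was the smallest in value among the casein genes. Glycam1 read 11.45 in tumor 1 and 2.22 to 2.35 in the other 4. Ltf, the lactoferrin gene, fell by 4.63 with a tumor range from 4.60 to 12.87. The linear signal was also summed over all 18586 probe sets of an array. The 13 probe sets that stood for these genes made up 1.86% to 2.52% of it in a normal array and 0.0374% to 0.239% in a tumor array. Further probe sets of the same genes count only in the whole. The highest log2 value of any array was 15.98, so Wap and Csn2 lay near the upper end of the scale in the normal glands. Whether the arrays still told amounts apart at that level was not tested.

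Genes that make and package milk fat fell with the proteins. Of 25 tested genes 22 fell, 1 rose and the median was -4.03. Btn1a1, the butyrophilin of the milk fat globule membrane, read 12.12 to 14.12 in the normal glands and 2.24 to 2.82 in the tumors, a fall of 10.41. Its partner at that membrane, Xdh, read 5.10, 8.58, 6.61, 5.90 and 3.74 in the tumors against 11.59 to 13.47 and fell by 6.63. Olah, the thioesterase that ends medium-chain fatty acids in the gland, fell by 9.04, and Fabp3 by 11.55. The synthesis genes Acaca (-4.68), Fasn (-3.67), Elovl6 (-4.12) and Scd1 (-4.03) were lower too. Scd2 alone rose, by 1.92. Cd36, Lpl and Cidea of this list are also genes of fat cells, and Cidea read 12.10 to 14.37 in the normal glands and 7.81 in tumor 1 against 3.41 to 3.82 in the others (tumor 1 also had the highest adipocyte level of the tumors). The part of fat cells in these falls was not tested. With normal glands 4 and 5 only, 22 of the 25 were lower.

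Transport genes of the secreting cell were mostly lower, 10 of 16, but 2 were higher. Slc34a2, the phosphate carrier, fell by 7.81, Atp2b2, the calcium pump of the apical membrane, by 4.27, and B4galt1, the catalytic subunit of lactose synthase, by 3.34. Aqp5, a water channel of secretory epithelium, went the other way, with 10.16, 7.84, 8.77, 10.04 and 10.47 in the tumors and 2.50 to 3.38 in the normal glands, a rise of 6.51 (SE 0.49, adjusted p = 2.94e-06). The carbonic anhydrase gene Car12 rose by 3.45.

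In the prolactin pathway the transcription factor genes Stat5a and Elf5 and the feedback gene Cish were lower. Stat5a read 7.25, 7.55, 7.54, 7.58 and 6.10 in the tumors and 10.34, 11.66, 11.22, 11.24 and 11.18 in the normal glands, a fall of 3.92 (SE 0.34, adjusted p = 6.93e-06). Elf5, the alveolar fate factor, read 10.15, 8.05, 7.17, 10.88 and 10.72 against 12.66 to 13.68 and fell by 3.82. Cish, a direct STAT5 target, fell by 4.44, and the receptor activator genes Tnfrsf11a and Tnfsf11 by 3.73 and 3.03. Socs3, a feedback gene of STAT3, rose by 2.55. Of 16 genes in the list 8 fell, 3 rose and 5 were not called, with a median of -0.53, so the list did not move as a whole.

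**Figure D4:**
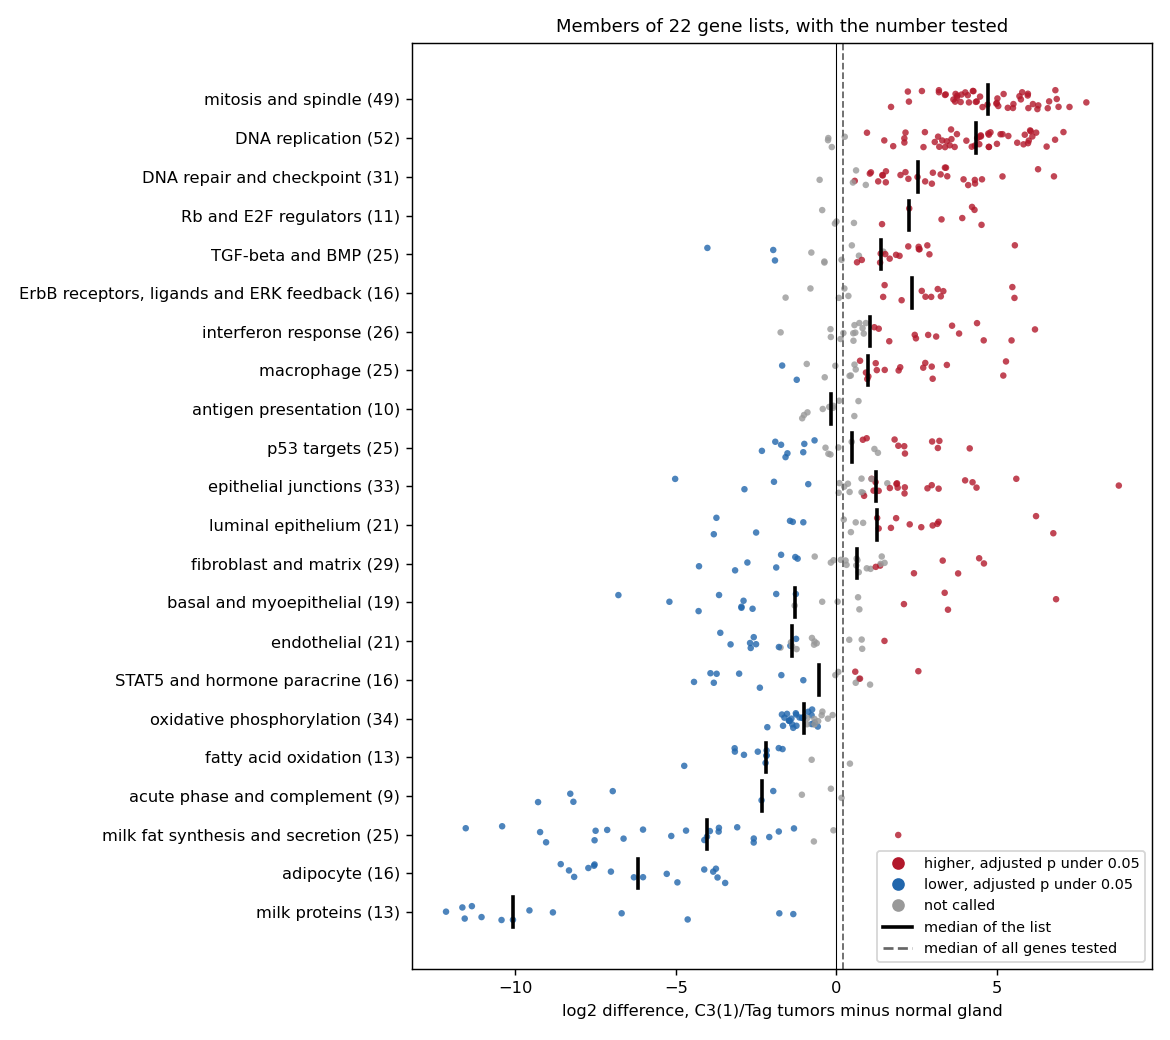
Log2 difference, C3(1)/Tag tumors minus normal gland (horizontal axis), of every tested member of 22 gene lists, with the number tested in brackets, red for higher, blue for lower and gray for not called at an adjusted p of 0.05. Black ticks are list medians and the dashed line is the median of all genes, 0.22. The lists run from milk proteins (median -10.08) to mitosis (4.71).

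Keratins showed a mixed epithelium. Krt8 and Krt18, of simple luminal epithelium, were higher by 1.27 and 1.70, and Krt8 read 13.19 to 13.70 in the tumors against 11.54 to 12.98. Krt7 rose by 6.75, from 3.19 to 8.32 in the normal glands to 11.67 to 12.91. Krt19 fell by 1.45. Krt17, a keratin of basal and stressed epithelium, read 9.11, 11.76, 10.97, 9.01 and 6.17 in the tumors and 2.37 to 2.93 in the normal glands, a rise of 6.84 (SE 0.87, adjusted p = 9.19e-05). Krt14 read 12.10, 12.88, 13.20, 11.12 and 8.43 against 8.87 to 10.55, so tumor 5 lay below every normal gland, and its rise of 2.10 passed narrowly (adjusted p = 0.0473), in 1 of its 3 probe sets. The call was lost on leaving out any one of tumors 1 to 4 or of normal glands 1 to 4 (adjusted p up to 0.107) and after centring (0.0826). Krt5, the usual partner of Krt14, fell by 3.66, with 5.20, 7.91, 6.89, 3.55 and 3.02 against 8.31 to 9.52. Krt6a read 8.64, 10.49, 8.96, 5.62 and 2.80 in the tumors and 2.31 to 3.02 in the normal glands, a rise of 4.80. Across the tumors, Krt17, Krt14, Krt5 and Krt6a were each lowest in tumor 5.

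Genes of the contractile myoepithelial cell fell. Myh11, smooth muscle myosin, read 8.65 to 10.04 in the normal glands and 2.33 to 2.54 in the tumors, a fall of 6.79 (SE 0.25, adjusted p = 3.92e-08). Cnn1 fell by 5.20, Myl9 by 4.29, Acta2 by 2.96 and Mylk by 2.89. These genes are also expressed in vessel walls. Of 19 basal and myoepithelial genes 10 fell and 4 rose, the risers being Krt17, Krt14, the integrin gene Itgb4 (3.47) and the laminin gene Lama3 (3.37). Of 21 luminal genes 11 rose, among them Prom1 (6.22), Cldn4 (3.18), Aldh1a3 (3.14) and Kit (2.64), and 6 fell, among them Elf5, Muc1 (-3.74), Xbp1 (-2.50) and Gata3 (-1.03, lost without any one of tumors 1 to 3 or normal gland 5). With normal glands 4 and 5 only, 7 luminal genes rose.

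Junction genes were mostly higher, and mesenchymal genes moved both ways. Of 33 junction genes 19 rose and 4 fell, with a median of 1.22. Cdh1, which encodes E-cadherin, read 12.31 to 13.02 in the tumors and 10.93 to 12.12 in the normal glands, a rise of 1.10 (SE 0.23, adjusted p = 0.00247). The desmosome genes Pkp1 (5.60), Dsp (4.36) and Dsc2 (4.01) rose beside Lad1 and the cornified envelope gene Ppl (4.24), while the gap junction gene Gjb2 fell by 5.02. With normal glands 4 and 5 only, 12 junction genes rose and 2 fell. Vim, which encodes vimentin, was not called at -0.69 (adjusted p = 0.104) but was called lower after centring (-1.11, adjusted p = 0.0214). Of 16 genes of the mesenchymal list 3 rose (Fn1, Foxc1 and S100a4) and 3 fell (Snai2, Zeb1 and Fap). That was 18.8% each way, against 34.2% and 22.0% of all genes, and Cdh2, Twist1 and Snai1 were not called.

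Matrix genes moved both ways. Fn1, fibronectin, read 13.53 to 13.98 in the tumors and 7.97 to 9.97 in the normal glands, a rise of 4.59 (SE 0.33, adjusted p = 2.52e-06). Fbln2 rose by 4.45, Pcolce by 3.79, Thbs1 by 3.31 and Bgn by 2.41. The fibrillar collagen genes Col1a1 (0.69), Col1a2 (0.62) and Col5a2 (0.28) were not called and Col3a1 fell by 1.28. Dcn, the small proteoglycan decorin of resting stroma, fell by 4.28, Igf1 by 3.16 and Lum by 2.77. Of 29 fibroblast and matrix genes 7 rose and 7 fell, 24.1% each way, against 34.2% and 22.0% of all genes. In the basement membrane the laminin chain genes Lama5 (2.43) and Lamb2 (1.77) rose, and Lama1 (-4.53), Lama2 (-3.77), Nid1 (-2.77) and Hspg2 (-1.96) fell. Of 26 protease and inhibitor genes 10 rose (38.5%), which is near the 34.2% of all genes. The rises were led by the inhibitor Timp1 (5.92), with Plat (3.46), Mmp13 (3.22) and Mmp14 (2.92). Timp4, which is also expressed in fat, fell by 6.06 and Adamts5 by 4.09. With normal glands 4 and 5 only, 6 of these 26 rose, and after centring 8 rose and 7 fell.

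All 16 adipocyte genes fell, with a median of -6.17. Adipoq, the adipocyte hormone adiponectin, read 14.07, 14.35, 14.17, 13.22 and 13.44 in the normal glands and 9.37, 6.64, 4.70, 9.25 and 4.17 in the tumors. The fall was 7.03 (SE 0.99, adjusted p = 0.000189), and tumors 1 and 4 kept the most. All 16 genes were also lower with normal glands 4 and 5 only. Of 21 endothelial genes 9 fell, among them Tek (-3.62), Sox17 (-3.30) and Vwf (-2.67), and Plvap rose by 1.50, and after centring 13 fell. The mean endothelial level was 4.74 to 5.38 in the tumors, 7.01 and 7.05 in normal glands 2 and 3 and 5.72 to 5.82 in the other normal glands. Of the 18 muscle genes 4 fell (22.2%, near the 22.0% of all genes) and none rose, with a median of -3.36. The groups overlapped for all 18 of these genes, and with normal glands 4 and 5 only 7 fell.

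Respiration genes were lower, by an amount that depended on which normal glands were used. Of 34 subunit genes of the respiratory chain and ATP synthase 24 fell and none rose, with a median of -1.02. Ndufa10, of complex I, had the largest fall of 2.15, and read 10.55, 10.22, 10.15, 10.66 and 11.02 in the tumors and 12.69, 13.57, 13.49, 11.81 and 11.80 in the normal glands. The normal values were highest in glands 1 to 3, as those of Ucp1 were. With normal glands 4 and 5 only, 11 of 34 fell and the median was -0.36. Of 13 fatty acid oxidation genes 11 fell, with a median of -2.18, among them Ppara (-4.74), Cpt2 (-3.17) and Hadhb (-3.16), and with normal glands 4 and 5 only 7 fell, with a median of -0.92. The part of brown fat in these falls was not tested.

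Macrophage genes were mostly higher. Of 25 tested 16 rose and 2 fell, with a median of 0.99, and the mean level of 8.09 to 8.68 in the tumors did not overlap with 6.76 to 7.20 in the normal glands. Arg1, arginase, read 7.31, 9.94, 10.38, 5.86 and 5.87 in the tumors and 2.06 to 3.10 in the normal glands, a rise of 5.28 (SE 0.88, adjusted p = 0.000552). Lgals3, which epithelial cells also express, rose by 5.20, the Fc receptor gene Fcgr1 by 3.44 and Cd68 by 3.00. The markers of resident macrophages Cd163 and Mrc1 fell by 1.69 and 1.24. Few lymphocyte genes could be tested. Of 6 B and plasma cell genes Blnk, a signaling adaptor, rose by 2.55 and 1 fell, and of 6 T and NK cell genes 2 fell. Jchain, of plasma cells that supply milk antibodies, fell by 6.22, from 6.99 to 10.81 in the normal glands, and the cytotoxic cell genes Gzma and Klrd1 fell by 3.17 and 3.12. Of 10 antigen presentation genes none was called, but 4 were called lower after centring and 2 after quantile normalization.

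Interferon-stimulated genes were higher, 13 of 26 with none lower and a median of 1.05. Ifit1 read 7.08, 6.07, 8.40, 7.87 and 8.85 in the tumors and 2.08 to 2.28 in the normal glands, a rise of 5.45 (SE 0.45, adjusted p = 5.86e-06). Oasl2 rose by 6.18, Usp18 by 4.59, Ifit2 by 4.38 and the chemokine gene Cxcl10 by 2.86. Stat2 (-0.17), Mx2 (-0.19) and Cxcl9 (-1.74) were not called, so the list did not move as a whole. Acute phase and mucosal defense genes of the pregnant gland fell, 6 of 9, among them Saa1 (-9.29), Orm1 (-8.29) and Pigr (-8.19), the receptor that carries antibodies into milk. Lcn2 was not called at 0.16.

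Of 5 tested ligands of the EGF receptor family 3 rose, and several ERK feedback genes rose. Of 16 genes in the list 11 rose and none fell, and the median was 2.34. Hbegf read 10.40, 10.38, 10.50, 11.15 and 8.96 in the tumors and 5.79, 3.29, 5.53, 5.81 and 3.26 in the normal glands, a rise of 5.54 (SE 0.63, adjusted p = 4.49e-05). Tgfa rose by 5.48 and Ereg by 3.15, and Btc (0.07) and Egf (-1.58) were not called, although Egf was called lower after centring, in the fit of all 9 groups and without normal gland 4. Of the receptors Erbb2 rose by 3.33 and Erbb3 by 1.50, and Egfr was not called at 0.25. The ERK-induced genes Etv5 (3.25), Spry1 (2.95) and Dusp6 (2.77) rose. Of 13 immediate early genes 9 rose, led by Egr1, which read 12.72 to 13.57 in the tumors and 6.79 to 8.30 in the normal glands and rose by 5.27, with Junb (3.97) and Egr2 (3.38). With normal glands 4 and 5 only, 7 genes of the EGF receptor list and 5 immediate early genes rose.

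Among receptor kinases and the IGF axis, Fgfr3 rose by 4.33, unevenly, with 7.04, 10.91, 8.21, 5.62 and 4.84 in the tumors and 2.86 to 3.24 in the normal glands. Epha2 (2.64), Fgfr1 (2.11) and Ddr1 (1.72) rose, and Met, the hepatocyte growth factor receptor, was not called at 0.36 (adjusted p = 0.589). The ligand genes Igf1 and Igf2 fell by 3.16 and 2.81, and the binding protein gene Igfbp6 fell by 5.51 while Igfbp3 rose by 3.12. In all, 10 of 23 (43.5%) rose and 7 (30.4%) fell, against 34.2% and 22.0% of all genes. In the TGF-beta and BMP list 15 of 25 rose and 3 fell. The activin subunit gene Inhbb rose by 5.56, the BMP target Id1 by 2.90 and the latent binding protein gene Ltbp1 by 2.83, and Tgfb1 rose by 1.52 while Tgfb2 fell by 4.02 and Tgfb3 by 1.92. Of 22 Wnt pathway genes 6 rose (27.3%) and 5 fell (22.7%), against 34.2% and 22.0% of all genes. The risers included the ligand gene Wnt7b (5.17) and the receptor genes Fzd2 (2.70) and Fzd7 (2.36). The feedback target Axin2 was not called at -1.59. Of 17 chemokine and receptor genes 5 rose, among them Cx3cl1 (4.25), Cxcl1 (4.07), Cxcl5 (3.71) and the receptor gene Cxcr4 (3.62), and 3 fell, which is no larger a share than among all genes. After centring 5 of these rose and 6 fell, and of the Wnt pathway genes 5 rose and 7 fell.

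Hypoxia-linked and glycolytic genes went both ways, 12 higher (44.4%) and 6 lower (22.2%) of 27, against 34.2% and 22.0% of all genes. Plod2 (6.23) and P4ha1 (4.67), which modify collagen chains, the carbonic anhydrase gene Car9 (4.12), the lactate exporter gene Slc16a3 (3.45) and Vegfa (1.75) rose. Bnip3 (-3.15), Pdk1 (-2.35), Pfkm (-2.23), Hk2 (-2.11) and Aldoa (-1.64) fell, and some of these are abundant in muscle or fat. Of 16 sterol synthesis genes 7 rose, led by Stard4 (3.19) and Msmo1 (2.10), and Lss fell by 1.66. Of 20 glutathione and NRF2 genes 3 rose, Akr1b8 (4.58), Nqo1 (4.42) and Gsr (1.85), and 5 fell, among them Gsta4 (-4.61), Gstm2 (-4.34) and Gpx3 (-3.98), and after centring 10 fell and after quantile normalization 8. Among 21 chaperone genes of the endoplasmic reticulum 5 rose (23.8%) and 2 fell (9.52%), both below the shares of all genes. Those that fell were Xbp1 and Dnajb9 (-1.69), and after centring 3 rose and 3 fell.

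Developmental regulators were few, with 2 large rises. Sox11, a factor of embryonic tissue, read 9.71, 9.02, 10.17, 8.90 and 6.34 in the tumors and 4.94, 2.80, 3.91, 3.74 and 2.35 in the normal glands, a rise of 5.28 (SE 0.72, adjusted p = 0.000147). Lhx2, a LIM homeobox factor, read 8.34, 8.83, 6.54, 8.29 and 6.19 against 2.13 to 3.37 and rose by 5.25 (SE 0.53, adjusted p = 2.08e-05). Runx1 rose by 3.80, and Hoxd8 and Hoxa5 fell by 3.79 and 2.71, the latter call being lost without any of several single arrays. Of 20 such factors 6 rose and 4 fell, but after centring 4 rose and 8 fell. Among stem and progenitor markers 12 of 20 rose and 4 fell. Cd44 rose by 5.12, from 6.33 to 7.04 in the normal glands to 11.42 to 12.19, Prom1 by 6.22 and the Notch targets Hey1 and Hes1 by 3.42 and 3.24. Aldh1a1, a marker of alveolar progenitors, fell by 6.20, and Aldh1a3 rose. Bmpr1a and Foxo3 differed less. The study's text pairs them, and Spry4, with the miRNA miR-412 by inverse correlation across its tumors and normal glands, which was not tested here. It links miR-412 to C3(1)/Tag and to basal-like tumors. When the study overexpressed miR-412 in a mammary tumor cell line, it reported less Bmpr1a transcript and more Foxo3 and Spry4 transcript. In the C3(1)/Tag tumors Bmpr1a was higher by 0.64 (adjusted p = 0.0371), with 1 of its 5 probe sets called in each direction and no call after centring. Foxo3 was lower there by 0.96 (adjusted p = 0.0204).

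The members were also set against the equal-weighted mean of the 7 other tumor models, in a fit of all 46 arrays. Here 1816 of 9329 genes (19.5%) were higher in C3(1)/Tag tumors and 879 (9.42%) were lower at an adjusted p under 0.05. The p53-/- and Brca1-/-p53+/- tumors came from Balb/C and 129B6/FVB mice, so strain enters this contrast, and with only the 5 MMTV models, all FVB, the counts were 1980 and 1047.

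Cell cycle genes were also higher than in other tumors. Of the 52 replication genes 48 were higher and none lower, with a median difference of 2.15 on the log2 scale, and of the 49 mitosis genes 46 were higher, with a median of 2.39. Cdc45 was higher by 4.41 (SE 0.65, adjusted p = 2.06e-06), Mcm5 by 3.50, Brca1 by 3.26, Cdkn2a by 4.11 (SE 0.76, adjusted p = 7.34e-05) and E2f1 by 2.76. Ccnd1 was lower by 2.19 (SE 0.49, adjusted p = 0.000708) than in other tumors, although it was not called against normal gland. Rb1 was not called in this contrast either (0.85, adjusted p = 0.0598).

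Several genes called higher than in normal gland were also higher in this contrast, among them some of the strongest rises and the narrowly called Krt14. Snorc was higher than in other tumors by 6.69 (SE 0.99, adjusted p = 2.22e-06), Ly6d by 6.45, Prkg2 by 5.74, Ncmap by 5.31, Sox11 by 5.27 (SE 0.73, adjusted p = 7.72e-07), Lhx2 by 5.10 (SE 0.53, adjusted p = 2.06e-09), Krt17 by 4.76, Emb by 4.26, Krt14 by 4.20 and Fgfr3 by 3.92. Lhx2 had a mean of 7.64 in C3(1)/Tag tumors, and the means of the other models lay between 2.12 and 4.56. For Col9a3 (2.10), Col11a1 (1.67), Cd44 (0.30), Ifit1 (1.29) and Krt18 (0.14) a difference from other tumors was not called.

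Some milk and secretion genes were lower than in other tumors too, though the list medians differed by less. Of 13 milk protein genes 7 were lower, with a median of -3.62, among them Wap (-3.62, SE 1.18, adjusted p = 0.0184), Lalba (-4.47) and Csn3 (-4.49), while Csn2 (-3.75, adjusted p = 0.0921), Glycam1 and Cel were not called. Of 25 milk fat genes 8 were lower and none higher, with a median of -0.47. Of 16 transport genes 6 were lower and 1 higher, with a median of -0.38. In the transport list Car6 was lower by 7.18, Car12 by 4.08 and Aqp5 by 2.93 (SE 0.57, adjusted p = 0.000142). The 2 genes that were higher than in normal gland, Aqp5 and Car12, were thus lower than in other tumors. None of the 16 adipocyte genes was called in this contrast, and of the 25 macrophage genes only Lgals3 was. Skeletal muscle genes were higher than in other tumors for 8 of 18, with a median of 3.21, while the muscle level of tumor 1 was 2.48.

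**Figure D5:**
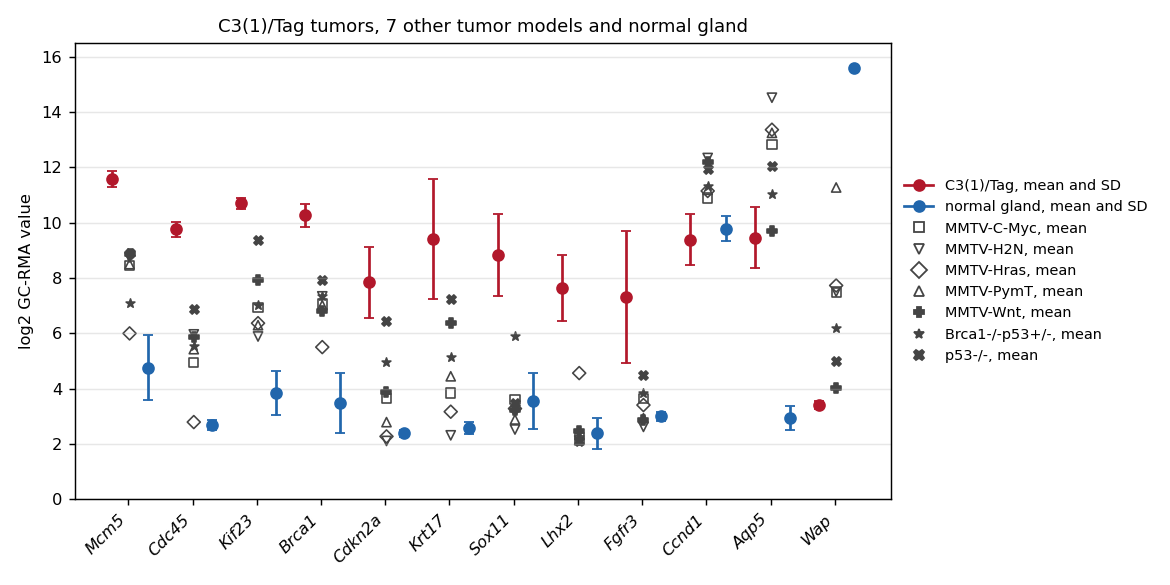
Log2 GC-RMA values (vertical axis) of 12 genes as the mean and SD of 5 C3(1)/Tag tumors (red) and 5 normal glands (blue), with the means of 7 other tumor models as dark symbols. Mcm5, Cdc45, Kif23 and Brca1 had their highest mean in C3(1)/Tag tumors, Sox11, Lhx2 and Fgfr3 were low in most other models, and Ccnd1 and Aqp5 had higher means in every other model.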

How the data were processed

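Total RNA of 46 tissue samples was measured on Affymetrix arrays after one-cycle labeling. The deposited values are log2 intensities, which the authors made by GC-RMA in Partek and filtered by MAS5 present or marginal calls; GCOS is also named in the submitters' notes, all without versions. The table held 18586 probe sets. Of these 16962 had 1 gene symbol, 569 had several and 1055 had none, and 16941 matched RefSeq. Probe sets over 4 on the log2 scale in at least 3 of 46 arrays were kept (16154), and the one with the highest mean over 46 arrays stood for its gene (9329 genes, 3568 with several probe sets). The 5 arrays of each group were compared with limma 3.58.1 (lmFit, eBayes) in R 4.3.3, and p-values were adjusted by Benjamini-Hochberg over all genes. The other models entered 1 fit of 9 groups. Python 3.11.15 and pandas 2.3.3 made the tables and matplotlib 3.10.9 the figures. The number of arrays limits the precision. Named are the 15 genes with the largest difference in each direction, called list members and a set of anchor genes whatever their result, beside uncalled members for contrast. The members and lists were chosen with earlier results of these data known. Alternatives changed the samples fitted, the block, filter, scaling, variance model, probe set and replicates. A comparison with normal glands 4 and 5 only was added after seeing the data.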

Additional observations from a re-analysis of the deposited data

Results flagged for a closer look

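An array stood apart from the 4 others of its group where its gap to the nearest one exceeded 0.71 of the group's range (Dixon's 95% critical value). For normally distributed values, chance flags about 1 in 20 groups of arrays, and 592 were tested, 1 for each named gene and group. Whether the values here were so distributed was not tested. Values are log2 levels, each followed by the nearest other value of its group. Many lie near 2, where the scale ends. Tumor 1 had the highest value of Cidea at 7.81 (next 3.82), Fabp3 at 6.07 (next 2.33), Glycam1 at 11.45 (next 2.35), Igfbp6 at 3.93 (next 2.83), Jchain at 4.49 (next 2.41), Klrd1 at 2.34 (next 2.16) and Sftpd at 4.46 (next 3.81) and, on the other side, the lowest value of Lama1 at 2.05 (next 2.07) and Lao1 at 2.45 (next 3.63). Tumor 2 had the highest value of Btc at 6.78 (next 4.27) and Snorc at 12.66 (next 10.64) and, on the other side, the lowest value of Ccnd1 at 7.78 (next 9.54). Tumor 3 had the highest value of Axin2 at 3.70 (next 2.16), Cnn1 at 6.55 (next 2.32), Myl9 at 6.90 (next 4.99) and Tnfsf11 at 5.52 (next 2.34). Tumor 4 had the highest value of Car6 at 4.70 (next 2.59) and Mrc1 at 8.85 (next 7.58) and, on the other side, the lowest value of Birc3 at 8.12 (next 8.84) and Wap at 3.13 (next 3.46). Tumor 5 had the highest value of Cxcl9 at 6.16 (next 2.79) and Igf2 at 2.73 (next 2.23) and, on the other side, the lowest value of Bmpr1a at 10.40 (next 10.86), Elovl6 at 5.58 (next 8.25) and Stat5a at 6.10 (next 7.25).

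Normal gland 1 had the highest value of Cxcl1 at 5.39 (next 4.28), Epha2 at 5.07 (next 4.20), Ereg at 2.94 (next 2.65), Krt6a at 3.02 (next 2.43), Lhx2 at 3.37 (next 2.15) and Prkg2 at 5.24 (next 3.14) and, on the other side, the lowest value of Casp2 at 3.78 (next 7.39) and Timp4 at 5.11 (next 8.41). Normal gland 2 had the highest value of Met at 6.06 (next 4.54) and, on the other side, the lowest value of Gadd45a at 3.23 (next 5.98) and Mmp14 at 7.33 (next 7.82). Normal gland 3 had the highest value of Cdkn2b at 5.88 (next 4.39) and, on the other side, the lowest value of Kif20a at 2.47 (next 3.40), Runx1 at 2.41 (next 6.17) and Top2a at 4.91 (next 6.24). Normal gland 4 had the highest value of Adamts5 at 11.91 (next 10.03), Car9 at 4.81 (next 2.71), Egf at 7.09 (next 3.72), Kif23 at 5.25 (next 3.55), Lama5 at 7.70 (next 6.54), Ly6d at 2.47 (next 2.18), Nqo1 at 3.96 (next 3.46) and Wfdc2 at 5.88 (next 3.60) and, on the other side, the lowest value of Ccng1 at 11.87 (next 12.22), Cdk4 at 7.51 (next 9.11), Hoxd8 at 5.42 (next 8.11), Mcm5 at 2.67 (next 5.14), Ncmap at 3.47 (next 3.55) and Tnfsf11 at 2.81 (next 5.93). Normal gland 5 had the highest value of Ccne2 at 6.95 (next 6.25), Cdt1 at 9.14 (next 8.27), Cldn4 at 8.42 (next 5.70), Emp2 at 6.07 (next 4.40), Slc16a3 at 3.85 (next 2.38), Snai1 at 2.83 (next 2.31), Tcof1 at 6.53 (next 5.64) and Thbs1 at 7.07 (next 5.50).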

How the results depend on the processing

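The counts of genes with a 2-fold call stayed within 1.5 times of 2530 higher and 1590 lower under every alternative run. They were 2039 and 1912 after quantile normalization, 1825 and 2360 after centring, 2354 and 1487 in 1 fit of all 9 groups, and 2043 and 1345 with normal glands 4 and 5 only, which was chosen after seeing the data. Leaving out 1 array gave 2396 to 2565 higher and 1451 to 1626 lower genes. Replicate numbers did not pair the samples, since the correlations of same-numbered deviations lay between -0.073 and 0.027, and with the replicate block the counts were 2499 and 1542. Under the block Bmpr1a, Hoxa5, Krt14 and Sdha lost their call. Of 261 named genes that were called, 218 kept direction and call under all alternatives, 34 lost the call with normal glands 4 and 5 only and 22 in the fit of 9 groups. Bmpr1a, Dnmt3b, Gata3, Hoxa5, Krt14 and Sdha lost it without 1 array, each without any of 4 or more arrays of both groups. The mean over probe sets turned Bmpr1a to -0.15, and the cause was not tested. Levels near 2 on the log2 scale limit what a fold can show.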
